A study of Saccharomyces cerevisiae with 6 samples.

Results

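The pericentromere of chromosome IV of budding yeast is described here by the 20 bp bins in which Rec8 ChEC-seq cleavage differed between wild-type and ctf19-9A cells. The bins were chosen by position alone: all bins of chromosome IV in the authors' deposited table whose start lies between 429748 and 469748 on build R64, which is 20 kb to either side of the middle of the centromere gap, the sequence between RMD1 and NTH1, the annotated genes nearest the centromere on the left and on the right. This gave 552 of the 14224 listed bins. The table lists only bins that passed the authors' DESeq2 comparison at a false discovery rate (adjusted p) under 0.05, so every bin described here is a called one, and for sequence without a listed bin the table does not tell unchanged from untested.

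In ChEC-seq a protein is fused to micrococcal nuclease (MNase), calcium starts cleavage of the DNA beside it, and the released fragments are sequenced. The study compared 3 WT and 3 ctf19-9A diploid cultures of Saccharomyces cerevisiae, each from a colony of its own zygote. Both genotypes carried REC8 fused to 3xFLAG-MNase and an ndt80 deletion (genotypes Rec8-3xFLAG-MNase ndt80-delta and Rec8-3xFLAG-MNase ctf19-9A ndt80-delta), so the controls too were held in meiotic prophase I. They were sampled after 4.5 h in 1% potassium acetate and cleaved for 5 min with 2 mM CaCl2. No values per culture are in the table, so depth is unknown and the spread between cultures is seen only through the authors' p-values. The background is labelled X and Y, without further detail.

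Rec8 is the meiotic kleisin, the subunit that closes the cohesin ring around sister chromatids. Ctf19 belongs to the inner kinetochore, and its phosphorylated N-terminal tail recruits the cohesin loader to the centromere, and in ctf19-9A phosphorylated residues of that tail are replaced by alanine. From the centromere, cohesin spreads into the flanking pericentromere, where pairs of genes transcribed towards each other (convergent genes) are known places for it to accumulate. The question the design implies for chromosome IV is how Rec8 differs between the genotypes across this domain, arm by arm and gene by gene.

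The file headers do not state which genotype is the numerator of the fold change. A ratio of the mutant over WT is likely, because of Ctf19's known role as a receptor of the loader, and negative values then stand for less Rec8 cleavage in ctf19-9A. With the sign turned, each direction below swaps. The standard error (SE) of a bin was recovered from its log2 fold change and two-sided p-value under a normal distribution, and 95% intervals are 1.96 SE to either side. A listed bin lay at least 2.83 SE from 0, so medians over listed bins overstate the change of all bins.

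The window held 537 negative and 15 positive bins, and the 2 signs did not mix. Negative bins made up 26.9% of the 2000 bins of sequence in the window, and positive bins all lay in the gap that holds the centromere. Across the genome, 3.60% of the 154927 bins that the adjusted p-values imply were tested were negative and 5.58% were positive. The number of bins tested inside the window is unknown, so its share is of sequence and not of tested bins. The negative bins had a median log2 fold change of -0.70, a 1.62-fold difference, with quartiles of -0.96 and -0.58, and a typical (median) SE was 0.18. The median of all 5576 negative bins of the genome was -0.72.

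**Figure D1:**
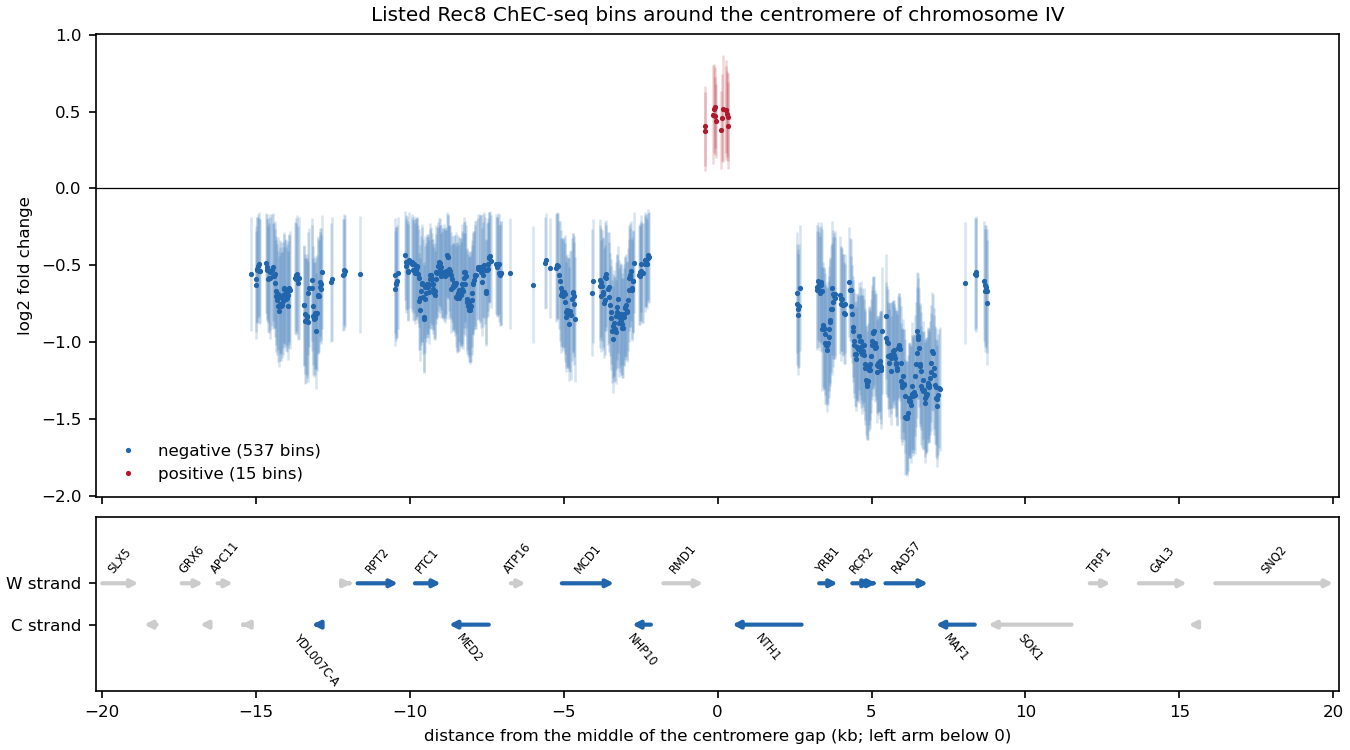
Log2 fold change of each listed 20 bp bin (points) with its 95% interval (vertical lines) against the distance in kb from the middle of the centromere gap, with the annotated genes as arrows in the direction of transcription (blue where a gene holds a negative bin, grey where it holds none). Negative bins run from 15.2 to 2.24 kb on the left arm and from 2.56 to 8.76 kb on the right arm, positive bins lie between them, and the lowest values are on the right arm.

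The 2 arms differed in form. On the left arm 340 negative bins were spread over 13.0 kb (434561 to 447520) and filled 52.5% of it, with a median of -0.62 (1.54-fold) and quartiles of -0.71 and -0.55. On the right arm 197 negative bins lay in 6.22 kb (452301 to 458520) and filled 63.3% of it, with a median of -1.06 (2.09-fold) and quartiles of -1.22 and -0.87. The lower quartile of the left arm was thus nearer to 0 than the upper quartile of the right arm. Median SEs were 0.18 on the left and 0.19 on the right. All 124 bins with a log2 fold change of -1 or lower, against a background of 0.489% of the implied tested bins, were on the right arm, and the left arm had 0. At a false discovery rate under 0.01, a threshold that 2.28% of the implied tested bins passed as negative ones, the arms were level, with 166 bins on the left and 168 on the right. Neighbouring bins share fragments and libraries, and the arms were therefore compared without a test.

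On the left arm the listed bins formed 3 stretches with near-empty steps between them. In steps of 1 kb from the centromere, 30 and 40 of 50 bins were negative from 2 to 3 and from 3 to 4 kb, and 1 of 50 from 6 to 7 kb. The step from 8 to 9 kb was filled, with 50 of 50 bins negative and a median of -0.62, and that from 11 to 12 kb again held 1. A last stretch, with 32 and 39 bins from 13 to 14 and from 14 to 15 kb, ended with 2 bins beyond 15 kb. On the right arm the step medians ran from -0.76 at 3 to 4 kb through -1.03 and -1.09 to -1.29 at 6 to 7 kb, where 50 of 50 bins were negative. Only 10 bins followed at 7 to 8 kb (median -1.30) and 10 at 8 to 9 kb (median -0.62), and from 9 to 20 kb none were listed.

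The positive bins lay between RMD1, a gene named for a defect in meiotic nuclear division, and NTH1, which encodes neutral trehalase. This 943 bp gap (449277 to 450219) holds the centromere. Its 15 positive bins, of 47 in the gap, ranged from 0.37 to 0.53 around a median of 0.47 (1.39-fold; median SE 0.14) and formed 4 groups. In the authors' deposited table the highest was 0.53 at 449641 to 449660 (SE 0.14, 95% interval 0.26 to 0.79, adjusted p 0.00409), and the one nearest the middle of the gap was 0.44 at 449681 to 449700 (SE 0.12, adjusted p 0.0112). Of the 15, 7 lay left and 8 right of the middle, with medians of 0.47 and 0.48. No bin was listed in the 160 bp between them (449701 to 449860). Only 2 of the 15 had a false discovery rate under 0.01. Where in the gap the centromere lies was not resolved, since no centromere annotation was used here.

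Between the positive and the negative bins lay 1800 bp without a listed bin on the left and 2200 bp on the right. The left stretch covers all of RMD1, which held no listed bin. The right one covers most of NTH1, which is transcribed towards the centromere, and its 6 negative bins (of 113) all lay near its 5′ end. In the authors' deposited table the innermost negative bins were -0.45 in NHP10 on the left (447501 to 447520; SE 0.15, adjusted p 0.0404) and -0.68 in NTH1 on the right (452301 to 452320; SE 0.20, adjusted p 0.0169).

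Of the 26 annotated genes that touch the window, 12 held a negative bin, 6 on either side, and 14 held none. This share, 46.2%, is close to the 43.6% (159 of 365) among genes whose middle lies no more than 20 kb from any centromere, and it is above the 2.74% of all 6431 genes. No gene held a positive one. In 5 genes every bin was negative: the small open reading frames YDL007C-A and YDR003W-A, PTC1, RCR2 and RAD57. Inside genes, 170 negative bins lay nearer to the 3′ and 163 nearer to the 5′ end.

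RAD57, a gene of recombinational DNA repair, held the lowest values. All 69 of its bins (455201 to 456583, W strand, 6.14 kb from the centromere) were negative, and 63 of them were at -1 or lower. They ranged from -1.50 to -0.83 around a median of -1.22 (median SE 0.19). In 4 equal parts of the gene from 5′ to 3′, medians were -1.09, -1.24, -1.34 and -1.29, so the 5′ part was nearest to 0. The lowest bin in the authors' deposited table was -1.50 at 455881 to 455900 (a 2.82-fold difference; SE 0.19, 95% interval -1.87 to -1.12, adjusted p 9.5e-11), 690 bp from the start of the gene and thus close to its middle. Its left neighbour had the smallest adjusted p of the window in the authors' deposited table (455861 to 455880; -1.49, SE 0.19, adjusted p 4.38e-11). With RAD57 left out, the other 128 negative bins of the right arm still had a median of -0.99.

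Genes between RAD57 and the centromere had medians nearer to 0 than RAD57. RCR2, for a vacuolar membrane protein, had all 32 bins negative with a median of -1.07. Its lowest bin in the authors' deposited table was -1.28 at 454601 to 454620 (SE 0.18, adjusted p 2.13e-09). The 6 bins of YDR003W-A, between RCR2 and RAD57, had a median of -0.97. YRB1, for a Ran-binding protein of nuclear transport, had 27 of 30 bins negative with a median of -0.86 and a lowest bin of -1.05 in the authors' deposited table (453281 to 453300; SE 0.21, adjusted p 4.83e-05). The 6 bins of NTH1, next in line, had a median of -0.76. Neighbouring genes here share fragments at their borders, so their medians are not independent of each other.

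On the far side of RAD57 the dense run of listed bins broke off inside MAF1, and values beyond that point are unknown where no bin was listed. MAF1, the repressor of RNA polymerase III, is transcribed towards RAD57, and 7 of its 63 bins were negative, 6 of them at its 3′ end with a median of -1.35. In the authors' deposited table the last of these was -1.30 (456961 to 456980; SE 0.21, adjusted p 1.1e-07), and no bin was listed in the next 780 bp. Its SE lay near the highest among the negative bins of the window, 0.22. Between MAF1 and SOK1 followed 9 bins with a median of -0.63, the outermost of which was -0.74 in the authors' deposited table (458501 to 458520; 8.76 kb from the centromere, SE 0.21, adjusted p 0.0102). SOK1, a gene linked to protein kinase A signalling, TRP1 of tryptophan synthesis, GAL3, the galactose sensor, YDR010C and SNQ2, a drug exporter, held no listed bin. Farther out, the nearest bin on this arm in the authors' deposited table was positive, 0.44 at 29.2 kb between DAD1 and KCS1 (adjusted p 0.0284).

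MCD1, on the left arm, encodes the mitotic kleisin whose place Rec8 takes in meiotic cohesin. It lies 4.22 kb from the centromere (444683 to 446383, W strand), and 45 of its 85 bins were negative, from -0.98 to -0.55 around a median of -0.71 (median SE 0.18). These bins sat at both ends of the gene. Cut into 4 equal parts from 5′ to 3′, it had 20 of 21 bins listed in the outer part at the 5′ end and 19 of 21 in that at the 3′ end, against 1 of 22 and 5 of 21 in the parts between. The outer parts had medians of -0.74 and -0.71. The lowest bin of the left arm was near the 3′ end and stood at -0.98 in the authors' deposited table (446341 to 446360; a 1.98-fold difference, SE 0.18, 95% interval -1.33 to -0.64, adjusted p 4.85e-06). This interval overlaps that of the lowest bin of RAD57, and the difference between these bins was not tested. The bins report Rec8 cleavage on the DNA of MCD1 and RAD57 and say nothing of the expression of these genes.

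NHP10, for a subunit of a chromatin remodelling complex, is convergent with MCD1 and had 19 of 31 bins negative, with a median of -0.49. In 4 equal parts from its 5′ to its 3′ end, medians went from -0.45 through -0.49 and -0.55 to -0.61, lowest at the end that faces MCD1. Its lowest bin in the authors' deposited table was -0.65 (446961 to 446980; SE 0.17, adjusted p 0.00487). Upstream of MCD1, 12 of 58 bins of the interval up to ATP16 were negative (median -0.52), and ATP16, for a subunit of mitochondrial ATP synthase, held no listed bin.

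Farther out on the left arm, PTC1, for a serine/threonine protein phosphatase, and MED2, for a Mediator subunit, formed the longest unbroken region of the window. It ran for 2100 bp (439801 to 441900), held 105 bins and had a median of -0.62. PTC1 had 43 of 43 bins negative and MED2 59 of 64, both with medians of -0.62, and the lowest bins in the authors' deposited table were -0.85 in PTC1 (440201 to 440220; SE 0.18, adjusted p 0.000207) and -0.79 in MED2 (441701 to 441720; SE 0.18, adjusted p 0.000645). RPT2, for a proteasome ATPase, came next with only 7 of 66 bins, 6 of them at its 3′ end.

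The outermost stretch lay around YDL007C-A, an open reading frame with no assigned name. All 13 of its bins were negative with a median of -0.81, and its lowest bin in the authors' deposited table was -0.93 at 13.0 kb (436701 to 436720; SE 0.19, adjusted p 0.000128), the lowest value of the left arm outside MCD1 and its convergent interval. The 2230 bp interval between YDL007C-A and the tRNA gene YNCD0005C held 64 negative bins of 111 with a median of -0.65, more than any other intergenic interval of the window. The tRNA genes YNCD0005C and YNCD0006W, on either side of this stretch, held no listed bin. The outermost negative bin in the authors' deposited table was -0.56 at 15.2 kb (434561 to 434580; SE 0.19, adjusted p 0.043). Beyond it APC11, for a subunit of the anaphase-promoting complex, GRX6, for a glutaredoxin, YDL009C, which is convergent with GRX6 and overlaps it, YDL012C and SLX5, for a SUMO-targeted ubiquitin ligase, held none. The nearest bin outside the window on this arm was positive in the authors' deposited table, 0.55 at 36.6 kb between GPD1 and GPM2 (adjusted p 0.0489). The window limit at 20 kb thus cut through no negative stretch.

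**Figure D2:**
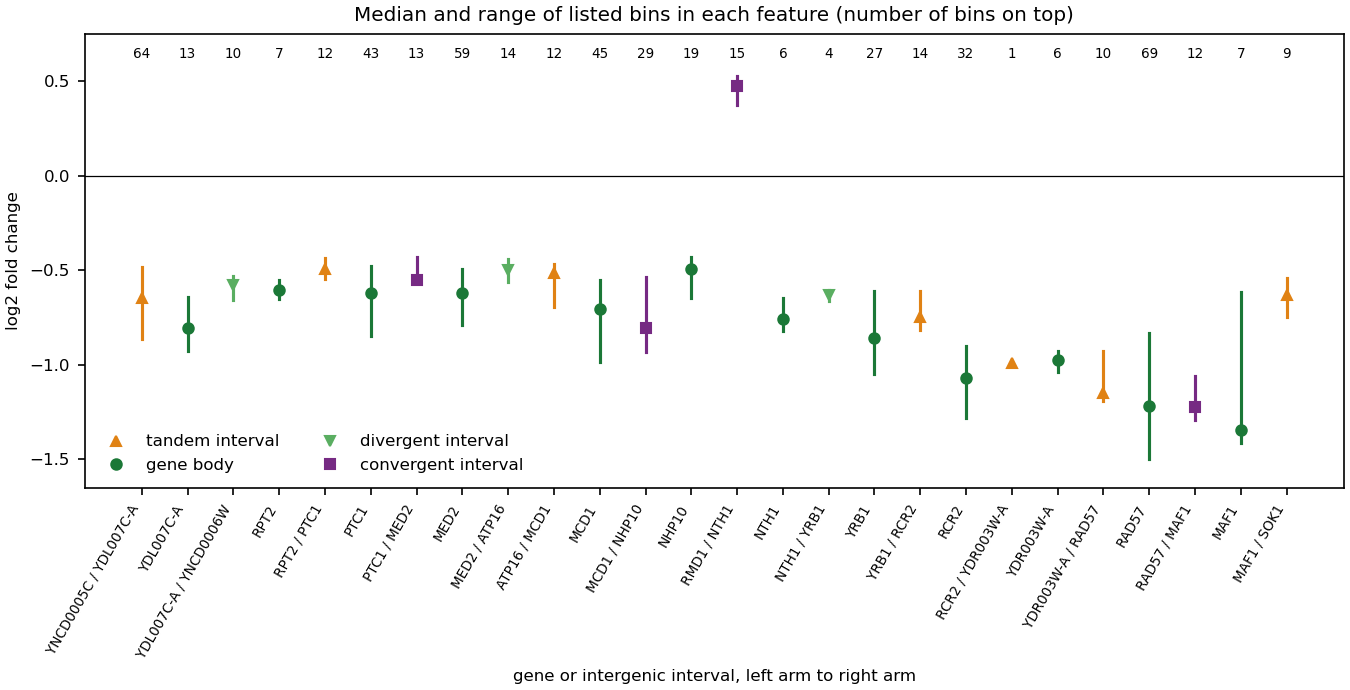
Log2 fold change of the listed bins in each gene and intergenic interval that holds any, in order along the chromosome, with the median (symbol), the range from lowest to highest bin (line) and the number of bins (top). Medians lie between -0.81 and -0.49 on the left arm, are lowest in MAF1 on the right arm, at -1.34 over its 7 bins, and are above 0 in the RMD1 / NTH1 gap alone.

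The window held 7 intergenic intervals between convergent genes, and the 3 with negative bins were filled almost throughout. Holding a negative bin was not particular to this class. Of the intervals between genes of one direction (tandem) 7 of 9 held one, and of those between genes pointing apart (divergent) 3 of 8. Between MCD1 and NHP10 (446384 to 446966, 3.07 kb from the centromere) 29 of 29 bins were negative with a median of -0.81 and a range of -0.93 to -0.54. In the authors' deposited table the lowest was -0.93 (446421 to 446440; SE 0.17, adjusted p 1.02e-05), so this interval and the adjoining 3′ end of MCD1 formed the lowest part of the inner left arm. Between PTC1 and MED2 (440755 to 441013, 8.86 kb) 13 of 13 bins were negative with a median of -0.55, nearer to 0 than the 2 genes themselves. The lowest there was -0.57 in the authors' deposited table (440861 to 440880; SE 0.16, adjusted p 0.0101). Between RAD57 and MAF1 (456584 to 456835, 6.96 kb) 12 of 13 bins were negative with a median of -1.22, and the lowest was -1.29 in the authors' deposited table (456621 to 456640; SE 0.19, adjusted p 6.26e-09). That median lay beside the -1.22 of RAD57 itself, so the low values were not limited to the sequence between the genes.

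Of the remaining 4 convergent intervals, the RMD1 / NTH1 gap contains the centromere and held the positive bins. The 3 others, SLX5 / YDL012C at 18.7 kb, APC11 / YNCD0005C at 15.6 kb and GAL3 / YDR010C at 15.3 kb, held no listed bin, and they are also the 3 farthest from the centromere. Distance and the presence of bins therefore cannot be told apart among these 7. The lack of bins in APC11 / YNCD0005C depends on taking the tRNA gene as its border. With protein-coding genes alone it would reach to YDL007C-A and take in the 64 negative bins between YNCD0005C and YDL007C-A.

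**Figure D3:**
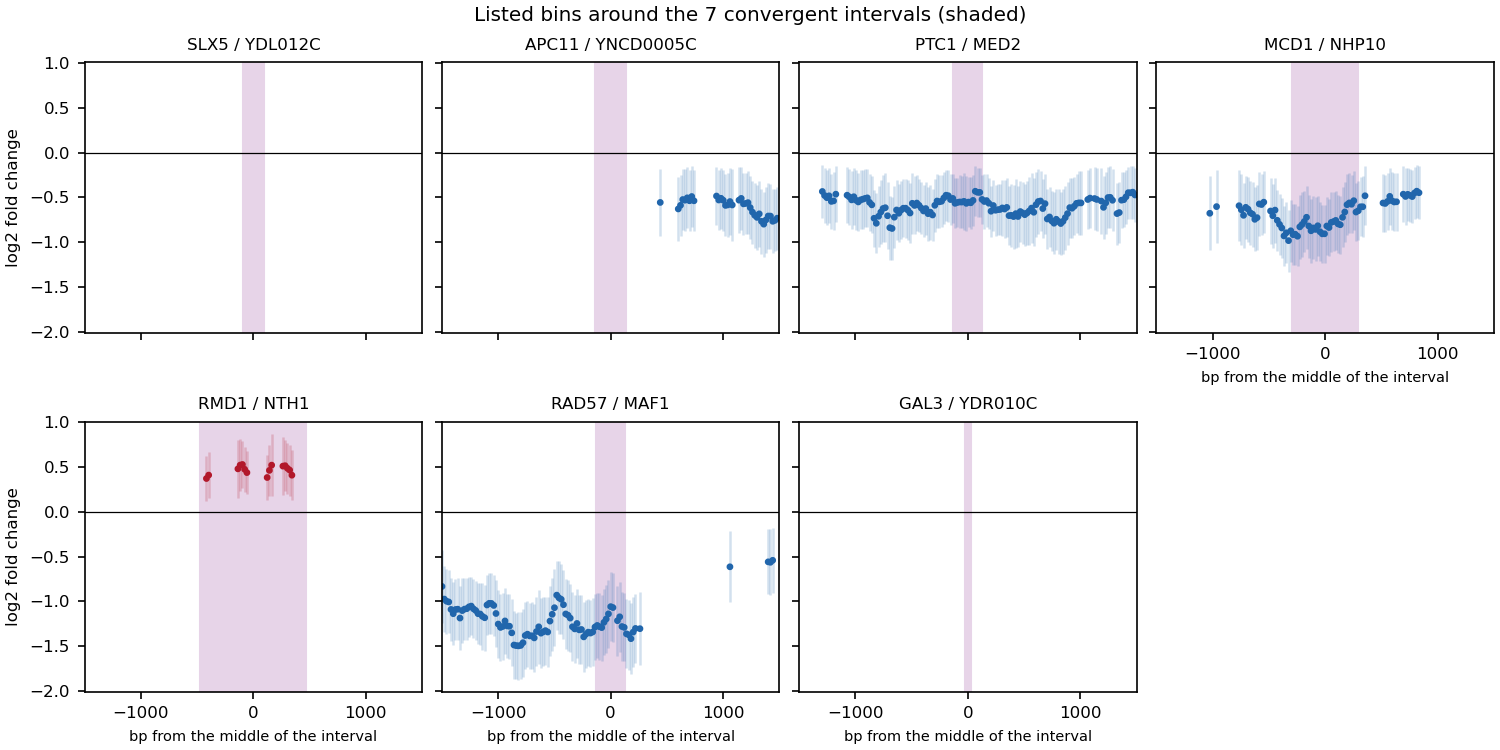
Log2 fold change of listed bins (points, with 95% intervals as lines) within 1500 bp of the middle of each of the 7 convergent intervals, which are shaded. MCD1 / NHP10, PTC1 / MED2 and RAD57 / MAF1 are covered by negative bins that go on into the genes beside them, RMD1 / NTH1 holds positive bins, and the other 3 intervals hold none.

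By class, 62.0% of the negative bins lay in gene bodies against 65.9% of the sequence in the window, 10.1% in convergent intervals against 6.35%, 22.7% in tandem intervals against 15.7% and 5.21% in divergent ones, which hold promoters on both sides, against 12.1%. The gene share depends on the threshold, since at a false discovery rate under 0.01 it was 70.1%, above the share of sequence. Convergent intervals also held more negative bins than their share of sequence in 12 of the 15 other centromere windows. Gene bodies, below their share here, did so in 11 of the 15, divergent intervals in 5 and tandem intervals in 3. The tandem share was the highest of the 16 windows, the others reaching at most 13.7%. It rests on the interval between YNCD0005C and YDL007C-A: with protein-coding genes alone that interval becomes one between the convergent genes APC11 and YDL007C-A, and the tandem share was 10.8% and the convergent share 22.0%. The divergent share rests on weak bins, since at a false discovery rate under 0.01 it was 0.299%.

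Set beside the other 15 windows drawn in the same way, chromosome IV had the most negative bins, 537 against 105 to 515 with a median of 327. Chromosomes V (515) and XVI (482) came next. This order depends on weak bins: at a false discovery rate under 0.01 chromosome IV had 334, behind V with 449 and XVI with 357, and within 10 kb it ranked 2. The median of its negative bins, -0.70, ranked 9 of 16. By the number of bins at -1 or lower it stood higher, with 124, exceeded by the 160 of XIV alone. These 124 bins were 16.4% of all 757 in the genome, and all of them were on the right arm. They made up 23.1% of its negative bins against 13.6% of all negative bins. There is 1 window of each chromosome, so these ranks are descriptions without a test.

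**Figure D4:**
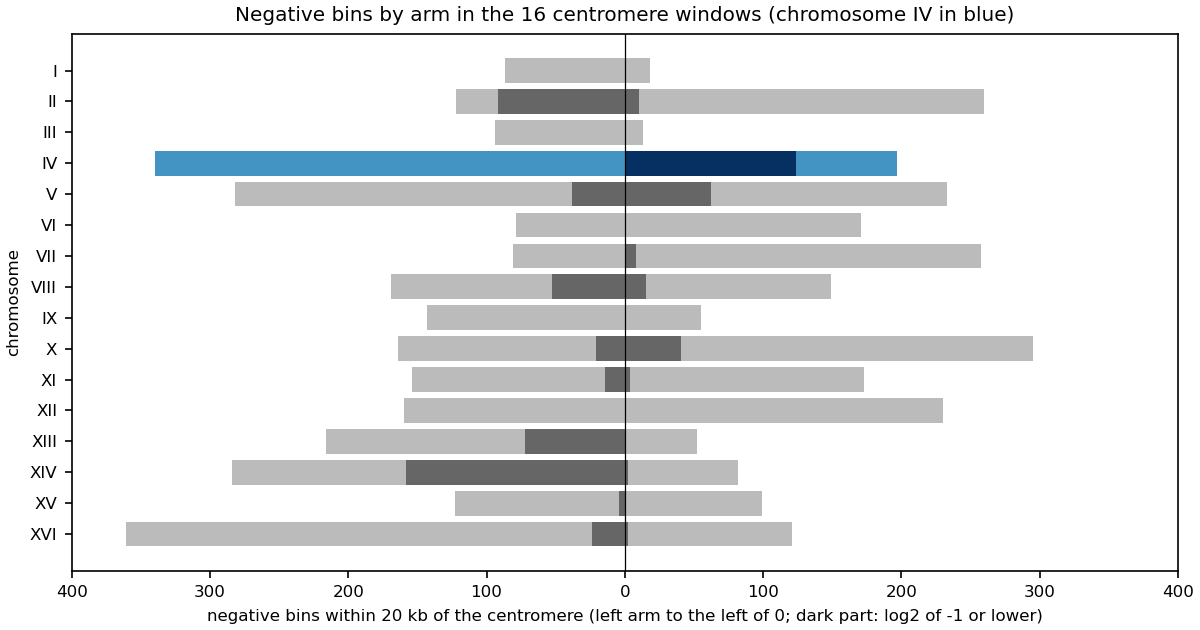
Number of negative bins within 20 kb of the centromere on the left arm (bars to the left of 0) and right arm (bars to the right) of the 16 chromosomes, with the bins at a log2 fold change of -1 or lower as the dark part and chromosome IV in blue. Chromosome IV has 340 on the left with 0 dark and 197 on the right with 124 dark, and of the other chromosomes with dark bins V, VII, X and XII have most of them on the right arm and II, VIII, XI, XIII, XIV, XV and XVI on the left arm.

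The arms of chromosome IV ranked differently by number and by size among the 32 arms. Its left arm was second by number of negative bins, 340 after 361 on the left arm of XVI, but its median ranked 23. That count includes weak and distant bins. Of the 340, 166 had a false discovery rate under 0.01, and within 10 kb the left arm had 239 and ranked 4 among the 16 left arms. Its right arm ranked 11 by number, but its median of -1.06 was second after -1.13 on the left arm of II, and the lowest of the 16 right arms, whose others ran from -0.84 to -0.56. Its 124 bins at -1 or lower were second after 158 on the left arm of XIV. The negative bins of chromosome IV ended at 8.76 kb on the right, short of the median of 11.3 kb over the other right arms, and at 15.2 kb on the left, where the other left arms had a median of 16.3 kb. The centromere gap of IV had the most positive bins, 15 against 0 to 13 in the other gaps. Gaps ran from 630 to 2541 bp and the counts were not scaled to length. Only 2 of the 15 had a false discovery rate under 0.01, so this order rests on weak bins.

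The lowest bin of the left arm lay 34 bp from a convergent interval, MCD1 / NHP10, and that of the right arm 694 bp from RAD57 / MAF1. These are the first convergent intervals outside the centromere gap on each arm, at 2.78 and 6.84 kb. For all sequence of the window the median distance to such an interval was 1085 bp on the left and 2427 bp on the right arm. Over all 32 arms the lowest bin was nearer to a convergent interval than the arm's median sequence on 28, and within 500 bp on 20, with medians of 385 bp for the lowest bins and 1568 bp for sequence. That sequence includes stretches without a negative bin, and the share of it within 500 bp was not computed. Whether the lowest bins lie nearer to convergent intervals than other negative bins do was not tested.

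Among 13 genes for cohesin and its regulators, MCD1 was the 1 gene with negative bins. Only 2 of these 13, MCD1 and REC8, lie within 20 kb of a centromere, where 43.6% of all genes held a negative bin. ESP1, for separase, held 1 positive bin and 11 held none, including REC8, 14.3 kb from the centromere of XVI. None of 13 genes of the Ctf19 complex held negative bins, and CTF3 held 5 positive ones. Of these 13, 0 lie within 20 kb of a centromere, so the lack of negative bins says little about them. Of all 6431 genes, 2.74% held a negative bin and 8.88% held a positive bin.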

How the data were processed

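Members, gene lists and descriptions were chosen with earlier results of these data known. Per the labels, ChEC-seq libraries of 3 WT and 3 ctf19-9A cultures were compared. Tools listed in the submitters' processing notes are DESeq2 (no version), deepTools 3.4.3, Bowtie2 2.5.0 and FastQC 0.11.9, and the builds R64 and sacCer3. Their settings and any filters are not given there. Per the file headers, the deposited table gives for each 20 bp bin a p-value, a false discovery rate, a log2 fold change and a shrunken log2 fold change, all made by the authors. No test over samples was made here, and the authors' adjusted p was the call.

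Bins were joined by their middle to the 6431 nuclear genes of RefSeq's R64 table, with strand and arm read from systematic names, in Python 3.11.15 with pandas 2.3.3 and scipy 1.17.1. The number of tested bins was taken from the last bin's rank, p-value and false discovery rate, assuming Benjamini-Hochberg adjustment. Steps were tested on simulated data. Bins named with full values were the lowest and outermost of each arm, the smallest adjusted p, the lowest of each gene with 10 or more listed bins and of each convergent interval, and those of the gap. No DNA sequence of the region was at hand, so none is shown. One planned gene list is not reported here.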

Additional observations from a re-analysis of the deposited data

How the results depend on the processing

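Of 38 recomputed values, 20 stayed close to the main ones and 18 moved. Close meant within a fixed ratio for a count, within a typical SE for a median and unchanged for a rank. For a class share it meant inside a binomial interval of the main share. That interval treats bins as independent, which they are not, so the labels are descriptions only. Bins were split by sign beforehand, so the sign of a median could not change. The order of the arms did: 340 negative bins on the left against 197 on the right became 166 against 168 at a false discovery rate under 0.01. At that threshold the gene share went from below to above the 65.9% of sequence. At a false discovery rate under 0.01 there were 334 negative and 2 positive bins and a rank of 3 among chromosomes, with class shares of 70.1% (genes), 13.5% (convergent), 16.2% (tandem) and 0.299% (divergent). With a log2 size of 1 or more, 124 negative bins were left, 124 on the right and 0 on the left arm, and 0 positive ones. Within 10 kb the rank was 2. The shrunken log2 fold change gave a negative median of -0.52. Allowing 100 or 500 bp between bins turned 44 merged negative regions into 25 and 7. With protein-coding genes alone, convergent and tandem shares were 22.0% and 10.8%, by the construction of that setting. A window of 30 kb added 1 positive bin and no negative one. No paired analysis was possible because the table gives the comparison only and no values per sample, and leaving out a culture could not be run for the same reason. Depth per sample is unknown, so a stretch with no listed bin shows no absence of change.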

Other observations

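The edges of the negative regions differed between the arms. Touching negative bins formed 34 regions on the left and 10 on the right arm. Of the 68 edges of the left regions, 0 had an adjusted p under 0.001 in the authors' deposited table, whereas 7 of 20 on the right did. A region of a single bin counts here with 2 edges, and there were 8 such regions on the left and 2 on the right. Among the 7 edges, the single bin at 456961 to 456980 in MAF1 counts 2 times (-1.30, adjusted p 1.1e-07 in the authors' deposited table). It had no listed bin in the 780 bp beyond it, and 20 bp without a listed bin on its other side. The edges at 456740, 456761 and 456940 also faced 20 bp without a listed bin. Those at 453900 and 455100 faced 120 and 100 bp. Most of the 7 edges thus border short unlisted gaps inside the negative stretch of the right arm, not its outer limits. Whether the unlisted neighbours were tested is unknown.

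Neighbouring listed negative bins were close in value. Their log2 fold changes had a Pearson correlation of 0.98 at a distance of 20 bp (493 pairs), 0.89 at 100 bp (418 pairs) and 0.75 at 1000 bp (304 pairs). The pairs of both arms were pooled, and the arms differ in median, which alone raises the correlation. What else it comes from was not tested. All bins share libraries and near ones share fragments, so the 537 negative bins of the window cannot be counted as that many independent values.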
